A study of Mus musculus with 6 samples.

Results

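The proteins of the mitochondrial ribosome were examined as a group of 76 genes, 47 of the large subunit (Mrpl symbols) and 29 of the small subunit (Mrps symbols), among 23119 rows of an expression table. Members were found and assigned to a subunit by symbol alone, and each had a single row. RNA came from erythroid cells of mouse fetal liver at embryonic day 13.5, sorted for the transferrin receptor CD71 and the red cell antigen Ter119. One group was Tfam WT (n = 3 libraries) and the other Tfam KO (n = 3), all of strain C57BL/6. The labels describe neither the Tfam allele nor the driver of its deletion, and they do not say whether the libraries came from separate embryos, so tests measure the spread between these libraries only. Values are RPKM, reads scaled to transcript length and to the number of mapped reads, so levels can be compared between genes.

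The mitochondrial ribosome translates the few mRNAs encoded by mitochondrial DNA, which specify core subunits of the respiratory chain and of ATP synthase. Its ribosomal RNAs are transcribed inside the organelle with the help of TFAM, while all its proteins are encoded in the nucleus, made in the cytosol and imported. Some of these proteins have counterparts in bacterial ribosomes and others are found only in mitochondria. Erythroblasts depend on mitochondria for heme synthesis and discard them late in maturation.

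All 8 erythroid markers examined were present, with summed levels of 9653 to 13356 RPKM in WT and 8337 to 12430 in KO. Tfam itself was at 7.22, 8.44 and 5.72 RPKM in WT and 5.92, 7.22 and 6.25 in KO, with overlapping groups (p = 0.7 in a two-sided exact permutation test that cannot go below 0.1). Reads on exons outside a deletion could remain, so this level does not check the labels. WT replicate 3 stood apart from the other libraries. Its RPKM sum was 815524, against 423263 to 535933 in the others, and its precursor ribosomal RNA, Rn45s, was at 5526 RPKM against 782 to 1143. In other signs KO replicate 3 stood apart with it. For the nuclear RNA Malat1 these libraries had 46.6 (WT) and 76.5 (KO) RPKM, and the remaining 4 had 158 to 211. Every comparison is therefore given with all 6 libraries and again without WT replicate 3.

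The members spanned a wide range of levels although their products share a particle. Of the 76 genes, 15 had a mean below 10 RPKM, 44 lay between 10 and 50, and 17 were at 50 or more. The median was 23.6 RPKM, against 10.5 for the 8302 rows with a mean of at least 1 RPKM, the rows that were tested, and all 76 members passed this filter. Among the 72 members on a row of their own the highest and lowest means differed 58.7-fold. The remaining 4 share a row with a neighbouring gene, namely Mrpl24 with Hdgf, Mrpl50 with Baat, Mrpl53 with Ccdc142 and Mrps6 with Slc5a3, and those values cannot be assigned to the ribosomal gene alone. Members with short transcripts had higher levels (Spearman's rho -0.51 between log2 length and log2 mean RPKM across 76 genes, which share the same libraries and the same division by length).

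Library by library, most members varied together. The median member deviated from its own mean over the 6 libraries by -0.08, -0.17 and 0.67 in WT replicates 1 to 3 and by -0.36, -0.07 and 0.02 in KO replicates 1 to 3, on the log2(RPKM + 1) scale. WT replicate 3 held the highest level of 71 members and KO replicate 1 the lowest of 65. The summed level of all members was 2459, 2272 and 4820 RPKM in WT and 2017, 2441 and 2789 in KO. As a share of each library's RPKM sum this was 0.532%, 0.537% and 0.591% in WT and 0.475%, 0.564% and 0.520% in KO. WT replicates 1 and 2 lay between the KO libraries in both measures, and the median of all tested rows deviated by no more than 0.04 in any library. In bulk RNA, fewer cells of a type and less RNA per cell cannot be told apart.

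**Figure D1:**
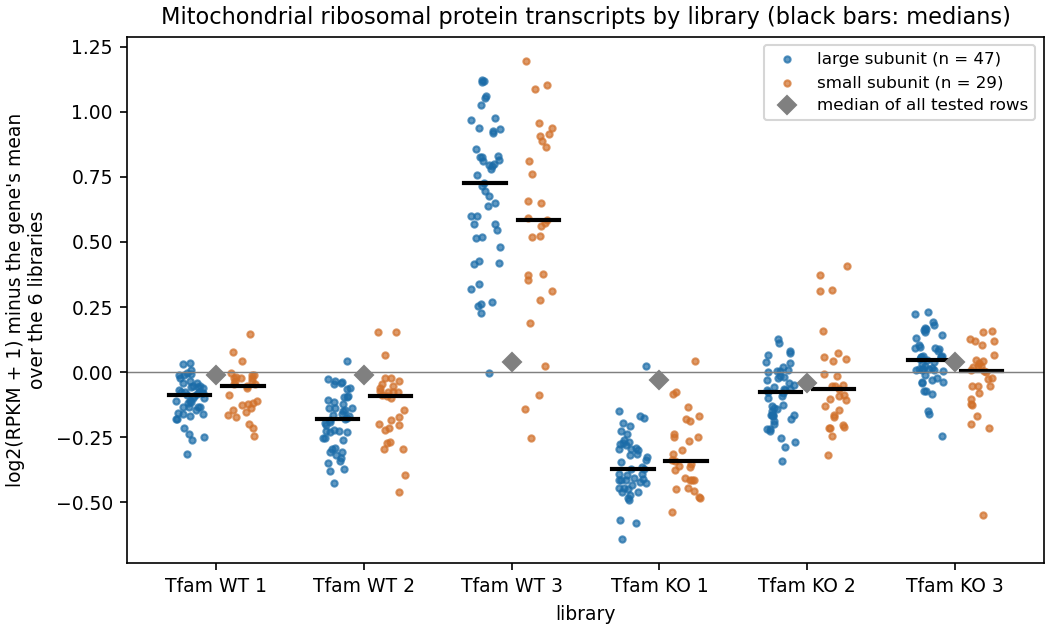
Deviation of each mitochondrial ribosomal protein gene from its mean over the 6 libraries, on the log2(RPKM + 1) scale, by library; points are genes of the large (blue) or small (orange) subunit, black bars their medians, and grey diamonds the median of all tested rows. WT replicate 3 sits above the other libraries (median 0.67 over all members) and KO replicate 1 below them (-0.36).

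With all 6 libraries, transcripts of the mitochondrial ribosome were lower in KO by a median of 0.28 on the log2 scale, but no member passed the test. A lower fitted value was found for 71 of 76 members, against 53.0% of all tested rows, whose median was -0.02. In limma the adjusted p was at least 0.909 for each member, and 0 members had an unadjusted p under 0.05. Over all rows 0 passed at an adjusted p of 0.05 (0% of 8302) and 1.20% had an unadjusted p under 0.05. The 95% interval of the log2 fold change held 0 for all 76 members and reached from -1.42 to 0.72 over the group. With libraries scaled to their summed RPKM, globins left out, the median was -0.05 for the members (51 of 76 lower) and 0.17 for all rows (21.8% lower). With the replicate number as a block, 3 members (Mrpl2, Mrpl20 and Mrps18a) had an unadjusted p under 0.05, against 3.90% of all rows, and the lowest adjusted p in that limma fit was 0.715.

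Without WT replicate 3 the difference was no longer seen. The median log2 fold change of the members was -0.0011, with 38 higher and 38 lower in KO, against 55.0% of all rows lower. No member passed in limma, where the lowest unadjusted p was 0.0952, the adjusted p was 1 for each, and 1 of 8302 rows passed (0.0120%, the small nucleolar RNA Snord67, named after its values were seen). An unadjusted p under 0.05 was found for 0 members and for 2.20% of all rows. The 95% intervals were narrower in this fit and for all 76 members lay within 1 log2 unit of no change, between -0.68 and 0.73, as for 96.6% of all rows. With all libraries that was so for 45 members (59.2%) and for 79.7% of all rows. When KO replicate 1 was left out as well, a choice made after seeing the data, 13 of 76 members were lower and the median was 0.10. Of all rows 49.7% were lower in that fit. Leaving out KO replicate 1 alone gave -0.15 with 69 lower, against 52.5% of all rows.

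**Figure D2:**
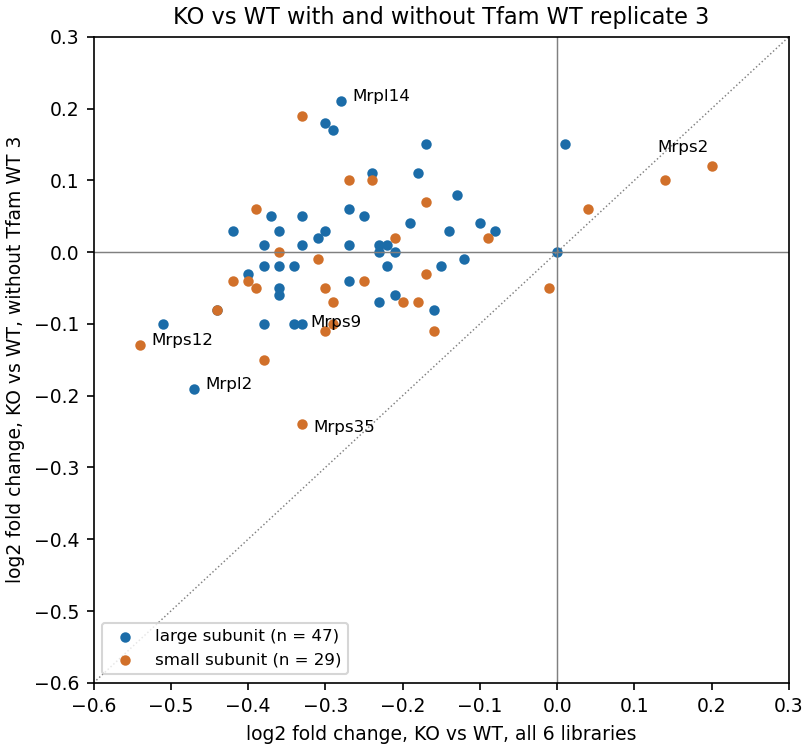
Log2 fold change of each member in KO against WT with all 6 libraries (horizontal axis) and without WT replicate 3 (vertical axis), on the log2(RPKM + 1) scale; points are genes, colours mark the subunit and the dotted line marks equal values. Most points lie left of 0 (71 of 76) but spread evenly around 0 on the vertical axis (38 above and 38 below).

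The numbered pairs differed in direction. KO replicate 1 was below WT replicate 1 for 73 members (median -0.25) and KO replicate 3 below WT replicate 3 for 73 (median -0.68), whereas KO replicate 2 was above WT replicate 2 for most, with 19 lower and a median of 0.08. Of the 8302 rows, 4574, 4879 and 4259 were lower in pairs 1, 2 and 3. All pairs were lower for 18 members, among 1669 of 8302 rows. KO replicate 1 was the lowest KO library for 72 members and 2803 of 8302 rows, the exceptions among members being Mrpl19, Mrps18b, Mrps2 and Mrps6.

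Both subunits followed this course. The large subunit had 45 of 47 members lower with all libraries (median -0.27) and 20 of 47 lower without WT replicate 3 (median 0.0074). For the small subunit the counts were 26 of 29 (median -0.29) and 18 of 29 (median -0.04). The difference between subunits was not tested. Large-subunit proteins with a bacterial counterpart (29 genes) had medians of -0.29 with all libraries, and those specific to mitochondria (17) of -0.27. Small-subunit proteins had medians of -0.26 (16 with a bacterial counterpart) and -0.30 (9 specific to mitochondria). Without WT replicate 3 these medians lay between -0.05 and 0.03, with 7 of 9 mitochondria-specific small-subunit genes lower. Mrpl55, Mrps18b and Mrps36 were not placed in any of these classes. Mrps18a and Mrps30 were also left out of them, since they are placed in the large subunit although their symbols count them with the small subunit above.

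Among abundant large-subunit genes, the shared row of Mrpl24 and Hdgf was at 253, 245 and 379 RPKM in WT and 218, 242 and 281 in KO. Mrpl20, whose bacterial counterpart acts early in assembly of the large subunit, was at 98.4, 88.9 and 218 RPKM in WT and 66.3, 84.9 and 117 in KO. Mrpl33 was at 83.5, 73.2 and 216 RPKM in WT and 65.7, 94.2 and 113 in KO. In each of these genes WT replicate 3 was the highest library and the other WT libraries lay within the KO range. Mrpl18, a protein of the central protuberance, was at 79.2, 71.6 and 151 RPKM in WT and 64.0, 75.9 and 93.7 in KO. Mrpl52 was at 66.9, 71.7 and 158 RPKM in WT and 58.1, 79.4 and 76.4 in KO, and the row of Mrpl53 and Ccdc142 at 68.6, 61.4 and 168 and at 55.1, 60.5 and 87.3. Mrpl52 and Mrpl53 are proteins without a bacterial counterpart. In Mrpl18, Mrpl52 and Mrpl53 too, WT replicate 3 was highest and the groups overlapped.

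Lower unadjusted p-values with all libraries went to Mrpl2, Mrpl16, Mrpl28, Mrpl4, Mrpl40 and Mrpl20 in the large subunit. Mrpl2, whose bacterial counterpart lies near the peptidyl transferase centre, was at 19.3, 19.7 and 35.2 RPKM in WT and 14.5, 17.8 and 18.9 in KO. It was the only large-subunit gene (1 of 47) whose groups did not overlap, against 2.36% of all rows with every KO library below WT. Its log2 fold change was -0.47 (SE 0.26, 95% interval -1.07 to 0.14), and -0.19 (SE 0.14) without WT replicate 3. Mrpl16 was at 25.7, 23.3 and 40.9 RPKM in WT and 19.4, 24.1 and 25.2 in KO. Mrpl28 was at 50, 46.0 and 101 RPKM in WT and 39.9, 43.6 and 53.0 in KO. In these last genes the KO range took in at least 1 WT library. Mrpl4, which lines the exit tunnel in its bacterial form, was at 38.2, 36.5 and 72.7 RPKM in WT and 33.7, 35.6 and 39.0 in KO. Mrpl40, specific to mitochondria, was at 32.2, 26.7 and 53.7 RPKM in WT and 22.8, 27.4 and 32.8 in KO. Without WT replicate 3 the log2 fold changes of Mrpl16, Mrpl28, Mrpl4, Mrpl40 and Mrpl20 were between -0.10 and -0.05.

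Some large-subunit genes were higher in KO once WT replicate 3 was left out, none past the test. Mrpl14, which faces the small subunit, was at 56.2, 53.7 and 153 RPKM in WT and 52.0, 60.2 and 82.5 in KO, with log2 fold changes of -0.28 (SE 0.42) and, without that library, 0.21 (SE 0.20). Mrpl34 was at 49.3, 45.2 and 123 RPKM in WT and 44.6, 56.1 and 60.1 in KO. Mrpl32, whose maturation needs a protease of the inner membrane, was at 40.3, 35.1 and 73.3 RPKM in WT and 35.4, 42.0 and 49.0 in KO. These genes showed the sign of their fold change turning with a single WT library. Mrpl45, which tethers the ribosome near the inner membrane, was at 5.51, 5.0 and 7.21 RPKM in WT and 5.20, 6.24 and 6.36 in KO, with values of 0.01 (SE 0.17) and 0.15 (SE 0.13).

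In the small subunit, Mrps21 was the highest gene, at 142, 122 and 387 RPKM in WT and 126, 146 and 184 in KO. WT replicate 3 was 2.93 times the mean of the other WT libraries. Mrps16, a counterpart of a bacterial assembly protein, was at 42.1, 34.6 and 81.4 RPKM in WT and 32.0, 36.7 and 43.5 in KO. Mrps36, a protein that is also found with oxoglutarate dehydrogenase, was at 46.0, 43.6 and 98.7 RPKM in WT and 36.6, 42.3 and 52.7 in KO. Mrps28 was at 36.5, 34.1 and 73.2 RPKM in WT and 29.3, 43.5 and 42.6 in KO. All of these overlapped between groups. Mrps34, specific to mitochondria, was at 33.9, 32.5 and 71.3 RPKM in WT and 26.5, 31.5 and 37.2 in KO, with log2 fold changes of -0.44 (SE 0.32) and, without WT replicate 3, -0.08 (SE 0.16). Mrps23 was at 15.9, 15.5 and 23.6 RPKM in WT and 12.4, 14.9 and 16.2 in KO, with -0.30 (SE 0.20) and -0.11 (SE 0.14). Both genes were lowest in KO replicate 1 and highest in WT replicate 3.

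Mrps35 had the lowest unadjusted p of the group with and without WT replicate 3. This protein, specific to mitochondrial ribosomes, was at 8.08, 8.0 and 10 RPKM in WT and 5.93, 7.29 and 6.89 in KO, so that the groups did not overlap. Its means were 6.70 ± 0.699 in KO and 8.70 ± 1.15 in WT (SD, n = 3 each). The log2 fold change was -0.33 (SE 0.15, 95% interval -0.69 to 0.03) with all libraries and -0.24 (SE 0.12, interval -0.52 to 0.05) without WT replicate 3. With limma its adjusted p was 0.909 and 1 in these fits. Mrps9, which borders the path of transfer RNA, was at 11.8, 11.9 and 19.5 RPKM in WT and 11.0, 11.8 and 11.1 in KO. Its groups were also apart, though WT replicate 1 and KO replicate 2 had the same value to 3 digits, and its log2 fold change was -0.07 (SE 0.11) without WT replicate 3. The KO libraries were all below the WT libraries for 3 of 76 members (Mrpl2, Mrps9 and Mrps35), against 2.36% of all rows, and above for 0, against 2.18%. Without WT replicate 3 the same 3 members were below, against 5.90% of rows, and 0 above, against 5.42%.

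Mrps12, the counterpart of a bacterial protein at the decoding centre, had the most negative fitted value of the group. It was at 29.3, 24.3 and 63.8 RPKM in WT and 22.7, 23.5 and 27.0 in KO. Its log2 fold change was -0.54 (SE 0.34), and -0.13 (SE 0.14) without WT replicate 3. Mrps2, which sits at the back of the small subunit, had the most positive value. It was at 4.92, 4.82 and 4.0 RPKM in WT and 5.14, 6.39 and 4.74 in KO, with 0.20 (SE 0.16) and 0.12 (SE 0.14). Mrps2 was unlike most of the group in being lowest in WT replicate 3.

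The paralogs of the Mrps18 family, which descend from a single bacterial protein, differed in level and pattern. Mrps18c was at 113, 93.0 and 265 RPKM in WT and 84.3, 106 and 137 in KO. Mrps18a, placed in the large subunit despite its symbol, was at 31.0, 31.5 and 50.8 RPKM in WT and 23.8, 28.5 and 32.1 in KO. Mrps18b was at 11.3, 10.7 and 16.7 RPKM in WT and 9.26, 15 and 7.44 in KO. Mrps18b was lowest in KO replicate 3, where Mrps18c had its highest KO level. Their log2 fold changes were -0.39 (SE 0.41), -0.38 (SE 0.24) and -0.29 (SE 0.28) for Mrps18c, Mrps18a and Mrps18b, and 0.06, -0.15 and -0.10 without WT replicate 3.

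**Figure D3:**
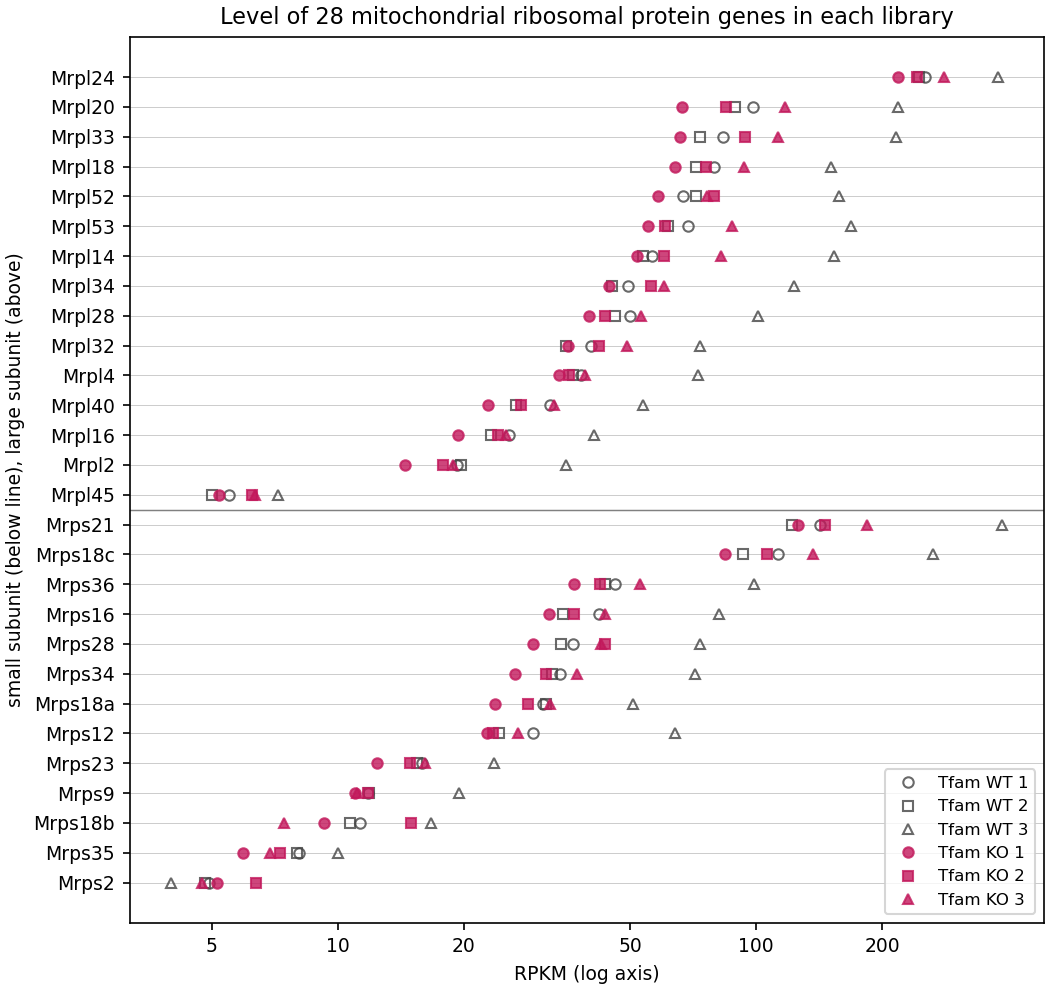
RPKM (log axis) of the 28 members described gene by gene, in each library; open grey symbols are WT, filled red symbols KO, and circle, square and triangle mark replicates 1, 2 and 3. The open triangle of WT replicate 3 lies right of the others in most genes, by 2.93 times the mean of WT replicates 1 and 2 in Mrps21, but is the lowest value in Mrps2.

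The excess in WT replicate 3 varied with transcript length, though not in steady steps. That library exceeded the mean of WT replicates 1 and 2 by a median of 0.79 on the log2 scale over the members and 0.04 over all tested rows. Member transcripts had a median length of 1038 nt, against 1978 nt for tested rows. Lengths are medians over the annotated transcripts of a gene, and the form expressed in these cells may differ. Tested rows were divided by length into 5 classes of equal size. In the shortest class (up to 930 nt) the 31 members had a median excess of 1.0 and the 1557 other rows 0.56, and in the next class the values were 0.72 (25 members) and 0.42. The middle class had 0.33 (9 members) and 0.12. In the next longer class, from 2408 nt, the 7 members had 0.71, close to the second class, and the other rows -0.16. The 4 members in the longest class (3558 nt or more) had 0.19 and the other rows -0.54. Members thus lay above other rows of like length in each class, and this difference was not tested. Across the 76 members Spearman's rho between log2 length and this excess was -0.56, a description of genes measured in the same libraries. Mrps21, the shortest at 405 nt, had an excess of 1.55, whereas Mrps25 (6073 nt) and Mrpl19 (5000 nt) had -0.14 and 0.00. Other transcripts that were long by this measure had a large excess, 1.04 for Mrps26 (4278 nt), 1.09 for Mrpl51 (3427 nt) and 1.07 for Mrps16 (2572 nt). Mrps25 was at 7.82, 9.19 and 7.62 RPKM in WT and 7.69, 8.53 and 8.19 in KO, and Mrpl19 at 3.02, 3.26 and 3.13 and at 3.20, 3.52 and 2.73. Mrps25, Mrpl19, Mrps26 and Mrpl51 were named after their values were seen.

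**Figure D4:**
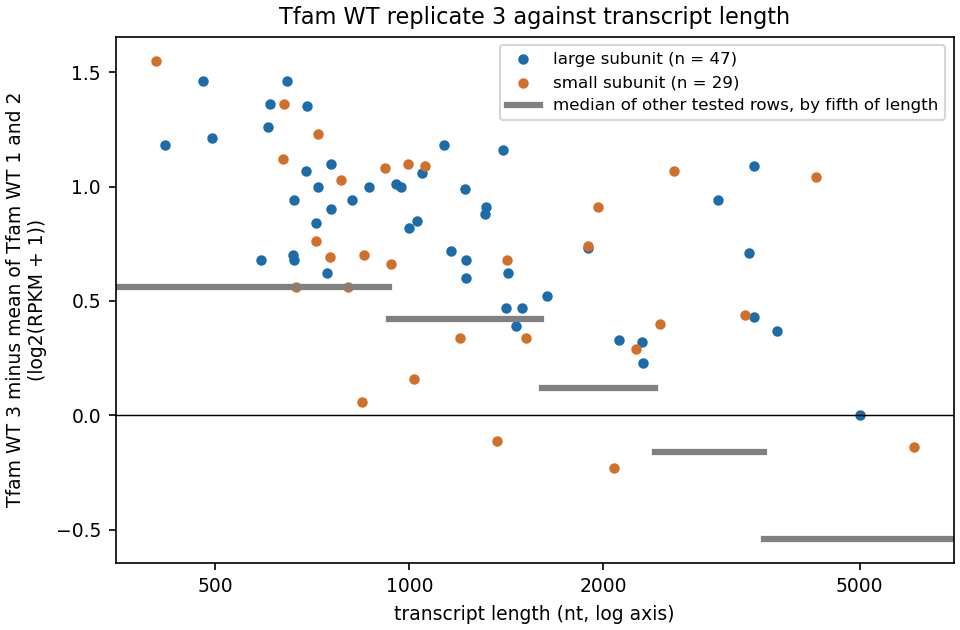
Excess of WT replicate 3 over the mean of WT replicates 1 and 2 (log2(RPKM + 1) scale) against transcript length (log axis) for each member; grey bars are medians of the other tested rows in 5 classes of length. The excess reaches 1.55 in the short Mrps21 and 1.09 in Mrpl51, long by its annotated transcripts, and most members lie above the grey bar of their length.

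The KO difference with all libraries also varied with length. From the shortest to the longest class the median log2 fold change of the members was -0.30, -0.27, -0.16, -0.20 and -0.08, and that of other rows -0.16, -0.13, -0.04, 0.04 and 0.15. In the class from 2408 nt all 7 members were lower, against 39.7% of other rows. Without WT replicate 3 the member medians were between -0.04 and 0.01 in every class, and those of other rows between -0.04 and 0.01. After trends with length and GC content were removed from each library, 68 of 72 members with a single-gene row were lower with all libraries (median -0.17), and 39 of 72 without WT replicate 3 (median -0.005, a setting chosen after seeing the data). The share of all rows that was lower was 50.9% in both of these fits.

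Transcripts of other cell types also differed between libraries, and their part in these values was not tested. Neutrophil markers summed to 35.4 to 153 RPKM in WT and 25.6 to 63.8 in KO, with 153 in WT replicate 3 and 25.6 in KO replicate 1, the libraries in which the members were highest and lowest. S100a8 and S100a9 made up most of this sum, and Elane and Mpo, made by immature neutrophils, were at most 2.20 and 6.82 RPKM. Mpo did not follow these libraries, at 5.2, 5 and 4.83 RPKM in WT and 3.68, 6.82 and 2.75 in KO. Elane and Prtn3, both low, were highest in WT replicate 3 and lowest in KO replicate 1. The 10 macrophage markers found of 11 listed summed to 12.2 to 18.7 RPKM in WT and 4.55 to 11.7 in KO, with Cd163 at 0. All 6 that were tested were lower in KO (median -0.53), and all 6 again without WT replicate 3 (median -0.36). Of all rows, 53.0% and 55.0% were lower in these fits. For Csf1r, Cd5l, Marco and C1qb all KO libraries lay below the WT libraries, against 2.36% of all rows. Their levels were low, with KO means of 0.848, 0.56, 0.73 and 1.99 RPKM. Among markers too low to be tested, Emr1 and Vcam1 had lower means in KO and Mrc1 a higher mean (0.315 RPKM against 0.217 in WT). KO replicate 3 had the lowest macrophage sum, whereas the members were lowest in KO replicate 1. Hepatocyte markers (6 found) summed to 28.9 to 70.9 and 10.7 to 110 RPKM, and megakaryocyte markers (5 found) to 39.1 to 72.0 and 26.0 to 82.5. Both sums were lowest in KO replicate 3 and next lowest in WT replicate 3.

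Some ribosomal proteins of the mitochondrion carry other symbols. Of 6 such genes 5 were lower with all libraries (median -0.25), and without WT replicate 3 it was 1 of 6 (median 0.11), where the members split evenly. This difference between the lists was not tested, and of all rows 53.0% and 55.0% were lower in these fits. Aurkaip1 was at 86.4, 71.5 and 194 RPKM in WT and 70.7, 80.3 and 98.6 in KO, and Chchd1 at 35.5, 29.6 and 71.6 and at 31.0, 38.6 and 41.3. Ptcd3, a pentatricopeptide repeat protein of the small subunit, was at 8.47, 10.3 and 12.1 RPKM in WT and 12.3, 10.4 and 12.8 in KO, and its log2 fold change was 0.19 (SE 0.17). With all libraries the groups overlapped in these genes. When WT replicate 3 was left out, all KO libraries lay above the WT libraries for 1 of the 6, Ptcd3, against 5.42% of all rows. Its log2 fold change in that fit was 0.31 (SE 0.14), with an unadjusted p of 0.061 and an adjusted p of 1 in limma.

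Factors that work with the mitochondrial ribosome had a smaller median excess in WT replicate 3 than the members (0.79). It was 0.46 for translation factors, 0.21 for assembly and modification genes and 0.08 for genes of mRNA stability and insertion. For all tested rows it was 0.04. In the same order, median transcript lengths of these lists were 2042, 1510 and 1504 nt, against 1038 nt for the members. Their median levels were 9.2, 3.82 and 14.2 RPKM, against 23.6. The differences in excess were not tested, nor was the part of length or level in them. Of 9 tested translation factors 5 were lower (median -0.13), and 3 without WT replicate 3 (median 0.02). Tufm, the elongation factor that delivers transfer RNA, was at 19.2, 17.1 and 25.3 RPKM in WT and 14.9, 20.4 and 16.7 in KO. Gfm1, the translocation factor, was at 14.4, 14.8 and 9.96 RPKM in WT and 12.2, 15.5 and 14.6 in KO, lowest in WT replicate 3. Of 18 assembly and ribosomal RNA modification genes 13 were lower (median -0.06), and 10 without WT replicate 3 (median -0.01). The shares of all rows that were lower in these fits were 53.0% and 55.0%. Tfb1m, which methylates the small ribosomal RNA, was at 6.27, 7.13 and 10.8 RPKM in WT and 5.21, 6.88 and 7.77 in KO. Rpusd4, a pseudouridine synthase acting on the large ribosomal RNA, was at 3.26, 3.0 and 3.19 RPKM in WT and 2.48, 2.94 and 2.48 in KO, the only gene of these lists whose KO libraries all lay below the WT libraries (2.36% of all rows). In the fit without WT replicate 3, 3 of the 18 assembly genes had all KO libraries above WT, against 5.42% of rows, and Rpusd4 alone had them below, against 5.90%. Eral1, a GTPase that binds the small ribosomal RNA, was one of the 3. It was at 11.1, 9.04 and 29.6 RPKM in WT and 13.6, 13.4 and 15.7 in KO. Its log2 fold change was -0.02 (SE 0.40) with all libraries and 0.47 (SE 0.14) without WT replicate 3, where its unadjusted p of 0.00961 was the only one under 0.05 in these lists and its adjusted p in limma was 1. The others were Rbfa, at 12.7, 12.0 and 23.2 RPKM in WT and 15.2, 14.3 and 13.7 in KO, and Mterfd1, at 7.76, 8.16 and 9.51 and at 8.21, 8.41 and 8.40. Among 4 genes for mitochondrial mRNA stability and membrane insertion, Lrpprc was at 20.4, 20.8 and 15.7 RPKM in WT and 21.4, 19.4 and 18.5 in KO and Slirp, its short partner, at 78.8, 76.0 and 151 and at 57.6, 86.5 and 88.0. None of the genes in these lists passed limma at an adjusted p of 0.05 with or without WT replicate 3.

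Ribosomal proteins of the cytosol had a larger swing. The 82 tested genes exceeded WT replicates 1 and 2 in WT replicate 3 by a median of 1.16, and KO replicate 1 was the lowest KO library for all 82. All 82 were lower in KO with 6 libraries (median -0.23), and 78 of 82 were higher without WT replicate 3 (median 0.16), where the mitochondrial group was at -0.0011. Among all rows 53.0% were lower with 6 libraries and 55.0% without WT replicate 3. The cytosolic transcripts were shorter (median 713 nt against 1038 nt for the members) and more abundant (median 1137 RPKM against 23.6). None passed the test. The difference between the ribosomes was not tested, nor was the part of length or level in it.

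The starts of member genes were compared with those of other genes, and no link between start sequences and the library pattern was tested. RefSeq promoters (build GRCm38.p6, 250 bases before to 50 after a start) were found for 67 members, with 73 starts. A divergent start of another gene within 500 bases upstream was found at 24 of 73 member starts (32.9%), against 9.86% of 32851 starts listed and 18.6% of 8005 starts of tested genes. The Ets core, CCGGAAG on either strand, was in 32.9% of member promoters, 8.86% of all and 21.5% of those of tested genes. A Yy1 motif, AAGATGGC, was in 16.4%, 2.75% and 5.73%, and an Nrf1 core, GCGCATGC, in 11.0%, 2.71% and 6.22%. The GC box GGGCGGG was in 42.5%, 25.6% and 47.7%. Motif matches are letters found on either strand and may overlap, and these shares were not tested. Gabpa (an Ets factor), Nrf1 and Yy1 are known regulators of nuclear genes for mitochondria.

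A pair of members joins the subunits at 1 start region. Mrpl46 (large subunit) and Mrps11 (small subunit) are transcribed away from each other, with 41 bases between their starts at chr7:78783090-78783130, shown on the strand of Mrps11 with the GC box in capitals. Mrpl46 was at 17.2, 16.6 and 39.6 RPKM in WT and 15, 17.4 and 19.1 in KO, and Mrps11 at 22.8, 21.7 and 48.4 and at 17.9, 22.4 and 27.3. WT replicate 3 was 2.34 times the mean of the other WT libraries for Mrpl46 and 2.18 times for Mrps11, and WT replicates 1 and 2 lay within the KO range in both genes. They were named after their values were seen.
Mrpl46 to Mrps11: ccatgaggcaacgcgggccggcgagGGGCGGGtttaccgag

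The 120 bases before the start are shown for 4 members that illustrate these motifs, or their absence in a gene whose groups did not overlap, on the strand of the gene with the motifs in capitals. Mrpl22 (chr11:58171544-58171663, plus strand) holds an Ets core starting at -53 and an Nrf1 core at -33. Mrpl33 (chr5:31613831-31613950, plus strand) holds an Nrf1 core at -12, and Mrps18a (chr17:46110884-46111003, plus strand) an Ets core at -26. Mrps9 (chr1:42851113-42851232, plus strand) holds none of the motifs in this stretch. Mrpl22, named after its values were seen, was at 20.1, 21.5 and 42.5 RPKM in WT and 17.4, 21.9 and 23.9 in KO, the course of the group.
Mrpl22: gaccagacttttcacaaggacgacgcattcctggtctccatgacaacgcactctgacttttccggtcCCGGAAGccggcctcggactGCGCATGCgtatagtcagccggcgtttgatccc
Mrpl33: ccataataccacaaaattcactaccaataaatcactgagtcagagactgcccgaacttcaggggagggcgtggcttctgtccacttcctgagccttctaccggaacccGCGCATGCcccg
Mrps18a: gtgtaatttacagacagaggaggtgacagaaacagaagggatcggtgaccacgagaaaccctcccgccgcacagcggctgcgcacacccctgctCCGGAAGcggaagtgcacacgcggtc
Mrps9: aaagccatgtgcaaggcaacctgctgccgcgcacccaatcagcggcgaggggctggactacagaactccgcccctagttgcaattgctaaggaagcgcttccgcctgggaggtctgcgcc

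Genes that share a divergent start region with a member gave a mixed picture. Of 16 tested partners that are not members 11 were lower in KO (median -0.08), and 8 without WT replicate 3 (median -0.01). Of all rows, 53.0% were lower, and 55.0% without WT replicate 3. Sars2, the mitochondrial seryl-tRNA synthetase beside Mrps12, was at 5.66, 5.64 and 7.91 RPKM in WT and 4.14, 5.84 and 4.71 in KO. Ndufb5, a complex I subunit beside Mrpl47, was at 21.9, 20.7 and 31.9 RPKM in WT and 17.0, 25.9 and 23.4 in KO, and Mrpl47 at 9.08, 8.07 and 14.6 and at 5.76, 8.91 and 9.69. Hira, a histone chaperone beside Mrpl40, was at 11.8, 13.1 and 10.4 RPKM in WT and 11.1, 11.9 and 12.2 in KO. Hira thus lacked the high value in WT replicate 3 that Mrpl40 had. The strand setting of the authors' counting is not given in the sources used here, so reads of overlapping genes on opposite strands may be mixed.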

How the data were processed

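RNA was sequenced from 6 libraries of sorted erythroid cells, 3 per group. The deposited values are RPKM, made by the authors with TopHat and Cufflinks on build mm9, per the submitters' processing notes. For their versions, annotation and strand setting, the sources used here give nothing, and read depth is unknown. Rows with a number in place of a name (25 of 23119) were left out. Tests covered the 8302 rows whose mean RPKM reached 1. Values were put on the log2(RPKM + 1) scale and fitted with limma 3.58.1 in R 4.3.3, using equal library weights, a variance trend and Benjamini-Hochberg adjustment (threshold 0.05) without a block, both with all libraries and without WT replicate 3. Fold changes on this scale understate those of low genes. The fit was tested on simulated data whose rows were drawn independently, so that test does not cover shifts shared by many rows. Transcript length and GC content are medians over GENCODE M21 transcripts, matched for 95.5% of tested rows and all 76 members. Figures used Python 3.11.15 and matplotlib 3.10.9. Members and lists were chosen with earlier results of these data known. The rule for named genes took, per subunit, the 6 highest levels, the 6 lowest p-values with and without WT replicate 3, members whose groups did not overlap, and the Mrps18 paralogs.

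Replicate numbers are shared by the groups in the labels. Deviations from group means correlated at 0.46, 0.17 and 0.53 between libraries numbered 1, 2 and 3, and WT replicate 2 with KO replicate 1 at 0.40, above its own number. Since each pair exceeded 0.1, a fit with the number as a block was run beside the reported fit, which has none. The pairing rests on this check and not on a label, and the check does not single out pairs 1 and 2.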

Additional observations from a re-analysis of the deposited data

How the results depend on the processing

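The member median stayed negative under each alternative run on all 6 libraries, from -0.29 (mean RPKM of at least 5, or equal library medians) to -0.05 (RPKM sum without globins). In between were 0.1 as pseudocount (-0.28), no filter (-0.28), no variance trend (-0.28), members on rows of their own (-0.28), quantile normalization (-0.18), length and GC trends removed (-0.17) and library weights (-0.09). Leaving out 1 library gave -0.43 to -0.0011, the latter without WT replicate 3. With the replicate block it was -0.28, 0 rows passed, and 324 rows had an unadjusted p under 0.05 in place of 100. The block changed no adjusted call.

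The number of rows past the threshold was 0 to 2 with 1 library left out (Snord67 without WT replicate 3, Mir135a-1 and Snord88c without KO replicate 2, Snord96a without KO replicate 3), 60 with library weights, 1 without WT replicate 3 with trends removed, and 6 without WT replicate 3 and KO replicate 1. No member was among them. Library weights were 21.4, 0.565 and 0.0859 for WT replicates 1 to 3 and 1.51, 1.21 and 0.524 for KO. In that fit the WT side rested almost wholly on WT replicate 1, which limits its 60 rows and its member median of -0.09.

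Of 472 single-gene values 20 had the opposite sign, 10 of them without WT replicate 3. With 1 library left out the range was -0.54 to 0.21 for Mrpl14, -0.50 to 0.03 for Mrpl18, -0.37 to 0.15 for Mrpl32, -0.59 to 0.18 for Mrpl33, -0.54 to 0.17 for Mrpl34, -0.08 to 0.15 for Mrpl45, -0.59 to 0.03 for Mrpl52, -0.69 to 0.03 for Mrpl53, -0.69 to 0.06 for Mrps18c, -0.64 to 0.19 for Mrps21 and -0.44 to 0.10 for Mrps28. Library weights gave 0.07 for Mrpl14, 0.05 for Mrpl34 and 0.02 for Mrpl52. Scaling to the RPKM sum without globins gave 0.01 for Mrpl24 and 0.06 for Mrpl32, and quantile normalization -0.0091 for Mrpl45. The cause was not tested.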
